A study of Mus musculus with 18 samples.

Results

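The transcripts compared here were those of 8926 genes, of 54307 in the deposited table, whose mean normalized count over the 3 cell libraries reached 100 in the microglia and also in the neuron cultures. For each gene, log2(normalized count + 1) in small extracellular vesicles (sEVs) minus that in the cells was taken in microglia and in neurons, and the neuron value was subtracted from the microglia value. This packaging difference is above 0 where a transcript stood higher in sEVs relative to cells in microglia than in neurons, and a difference of 1 is a ratio of 2. The members were chosen by their measured cell levels, which also enter the difference. The difference itself did not choose them. Just inside the limit, the lower of the 2 cell means was 100.02 for Nek2, 100.15 for Lrrc4c and 100.17 for Ada, and just outside it was 99.97 for Ift140, 99.93 for Gria3 and 99.75 for Smim26.

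The study collected poly(A) RNA from primary mouse brain cultures of microglia, neurons and astrocytes and from the sEVs of each culture type, to ask whether cell types package different mRNAs. The comparison uses 4 groups of 3 libraries: microglia, microglia-derived sEVs, neurons and neuron-derived sEVs. The 6 astrocyte libraries share the estimate of spread and are set beside the results. The labels give no strain, genotype, age or treatment for any group. They do not say whether replicates are separate cultures, so p-values measure only the spread between these samples, which may be technical.

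As background, sEVs are membrane-bound particles that cells release. Some form inside multivesicular endosomes through tetraspanins and the ESCRT machinery, and others bud from the cell surface. They hold cytosol with RNA and RNA-binding proteins, while transcripts that are translated at the endoplasmic reticulum (ER) or retained in nuclei or mitochondria have another route to a vesicle. In these bulk samples, fewer vesicles that hold a transcript and fewer copies per vesicle cannot be told apart.

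The normalized counts of the 12 libraries summed to between 41683300 and 69276600. The reads behind them numbered, by an estimate that takes a library's commonest value above 0 as 1 read, between 30658205 and 77758712. Across the members, replicate libraries correlated at r = 0.94 to 0.96 in microglia, 0.94 to 0.97 in neurons and 0.91 to 0.94 in neuron sEVs, but at 0.67 to 0.72 in microglia sEVs. The fit used below takes 1 estimate of spread per gene for all groups. Its SEs and p-values therefore do not measure the spread of a single group, and can understate that of microglia sEVs. The first microglia sEV library listed 6740 members above 0 and the other two 7839 and 7892, against 8759 to 8850 in neuron sEVs. The 24 microglia markers held 2.32 to 2.51% of the counts in microglia and 0.987 to 1.22% in their sEVs, and 0.00796 to 0.0115% in neurons. The 28 neuron markers held 1.24 to 1.36% in neurons, 0.376 to 0.479% in their sEVs and 0.00185 to 0.00268% in microglia. Astrocyte markers held 0.545 to 0.598% in the neuron cultures and 0.296 to 0.453% in their sEVs, with none of the 20 listed at 0, and oligodendrocyte markers held 0.0876 to 0.270% in the neuron cultures. The part of these other cells in the results below was not tested.

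Packaging differed between microglia and neurons for 2105 members by limma at an adjusted p under 0.05. Of these, 695 were higher in microglia and 1410 lower. Among all 19612 genes tested, 20.7% were called, 7.82% higher and 12.9% lower, so the members' 7.79% higher lay near the background and their 15.8% lower slightly above it. The median difference over the members was -0.78, with quartiles of -2.84 and 0.47 and a median SE of 0.78. Without the first microglia sEV library the median was -0.41. The 6821 other members did not pass. An unadjusted p under 0.05 was reached by 3344 members.

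The share of higher calls depended on how the libraries were put on 1 scale. It was 33.0% with the deposited values, 59.0% (1307 higher, 907 lower) with all libraries at the same total, 40.5% (1019 and 1498) after quantile normalization and 36.8% (757 and 1301) with libraries centred on the member median. These scalings moved the median difference over the members up by 0.62, 0.38 and 0.12, and that of all genes tested by 0.53, 0.66 and 0.12. None turned a called member to a call in the other direction. Of the called members, 630 higher and 772 lower passed under all 4 scalings. The median of a whole gene group is therefore given below with its distance from the median of all members. That yardstick includes 2686 members with at least 1 microglia sEV library at 0, as against 0 of 39 proteasome genes and 2 of 28 cytosolic chaperones. Over the 6171 members above 0 in all 12 libraries the median was -0.09. Against that value, every group would stand lower than the distances given below.

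**Figure D1:**
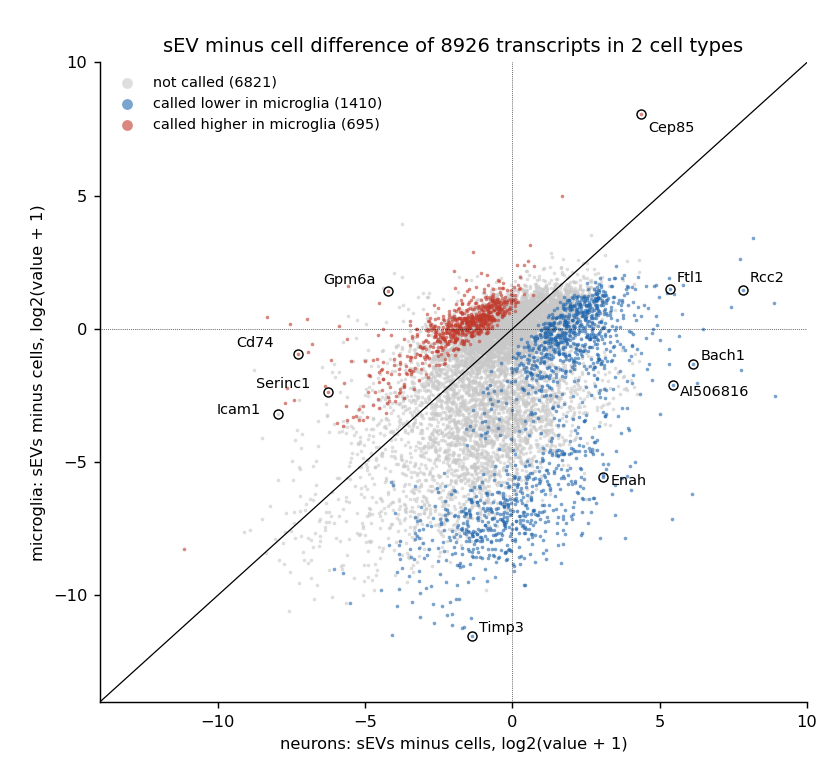
Each point is 1 of the 8926 members, with sEVs minus cells in neurons on the x axis and in microglia on the y axis, both on the log2(value + 1) scale; the line marks equal values and colours mark the packaging difference called by limma. The 1410 members called lower lie below the line, with medians of 1.39 in neurons and -1.95 in microglia, and the 695 called higher lie above it, with medians of -1.57 and 0.20.

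With the deposited values, which side moved differed between the calls. Effects and calls of sEVs against cells in a single type are given at this scaling only, here and below. Total counts were lower in sEVs than in cells in microglia (at most 54740800 against at least 65071800). In neurons they were higher (at least 50922700 against at most 43638400). Which side moved under the other scalings was not tested. Among all genes tested, 5.08% were higher and 21.2% lower in microglia sEVs than in microglia, which is 26.2% called in all, and 11.1% and 18.9% in neuron sEVs, which is 30% in all. Of the members, 857 were higher and 2306 lower in microglia sEVs, with a median of -0.84, and 1429 and 1669 in neuron sEVs, with a median of -0.34. Over the members the sEV effects of the 2 types, which share no libraries, had a Pearson r of 0.40 and a Spearman rho of 0.41, described across genes that share a library. Members called higher for the difference had a median of 0.20 in microglia and -1.57 in neurons, so by the deposited values they were mostly transcripts that neuron sEVs held below the neuron level. Of these 695, 412 were called lower in neuron sEVs with no call in microglia, 105 were lower in both, 99 rose only in microglia sEVs by these calls and 46 moved in opposite directions. Members called lower for the difference had a median of -1.95 in microglia and 1.39 in neurons. Of these 1410, 588 were called lower in microglia sEVs with no call in neurons, 411 were called higher in neuron sEVs with no call in microglia, 179 rose in both, 98 fell in both and 90 moved in opposite directions.

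Translation genes gave the most one-sided group. Of 85 cytosolic ribosomal protein (RP) genes, which encode the parts of the ribosome, 68 were lower in microglia than in neurons and none was higher. Both cell types held these transcripts at higher levels in sEVs than in cells: 79 of 85 rose in microglia sEVs and 83 in neuron sEVs, with medians of 1.05 and 2.71. The median packaging difference was -1.64, which is 0.85 below the median of all members, and 84 of the 85 values were below 0. With all libraries at the same total 44 RP genes were lower, and after quantile normalization 75. Both subunits took part, with 39 of 50 genes of the large subunit (median -1.48) and 29 of 35 of the small one (median -1.75).

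Rplp0, which encodes a protein of the ribosomal stalk, showed the pattern in every library. Its normalized counts were 31559, 31216 and 37315 in microglia, 63004, 64304 and 73910 in microglia sEVs, 30045, 30205 and 32716 in neurons and 435693, 410275 and 392365 in neuron sEVs. The 2 cell types overlapped and the 2 kinds of sEVs stood well apart, with a packaging difference of -2.73 ± 0.13 (SE, limma adjusted p = 1.9e-08). Rpsa, the laminin receptor protein of the small subunit, read 14718, 16694 and 15413 in microglia sEVs and 388641, 298240 and 339572 in neuron sEVs, from 4831, 4710 and 5409 and 10410, 11017 and 13347 in the cells. That gave a difference of -3.24 ± 0.19 (SE, limma adjusted p = 6.3e-08). Rpl9 and Rpl13 of the large subunit differed by -2.98 ± 0.15 (SE) and -2.39 ± 0.15 (SE). The 1 RP gene with a value above 0, Rps4l, was not called (1.30, limma adjusted p = 0.691) and is named after its value was seen. RP transcripts have near-identical pseudogenes, 4 for Rplp0 and 12 for Rpsa in the reference, between which reads can be split, so single values are uncertain.

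Translation factors were called in both directions. Of 49 members, 13 were lower and 6 higher, with a median of -0.32, 0.47 above all members. With all libraries at the same total 9 were lower and 14 higher and the median was 0.30. Without microglia library 2, neuron library 2 or neuron sEV library 2, 3 were higher. The elongation factors, which carry tRNAs to the ribosome and move it along, made up 4 of the lower calls among 6 members (median -1.99): Eef1a1, Eef1g, Eef2 and Eef1b2. Eef1e1, counted among the 6 by its symbol alone, was called higher. Eef1a1 read 126406, 112647 and 115725 in microglia and 179102, 221825 and 185457 in their sEVs, against 69386, 74742 and 70737 and 525422, 561877 and 521696 in neurons and their sEVs. The sEV libraries of both types lay above their cells and the difference was -2.18 ± 0.13 (SE, limma adjusted p = 6.3e-08). The 38 initiation factors held 5 higher and 7 lower calls, with a median of -0.02. Pabpc1, the cytosolic poly(A)-binding protein, rose in neuron sEVs (3.04 ± 0.15 (SE)) while in microglia its sEV effect was 0.05 (limma adjusted p = 0.981), a difference of -2.99 ± 0.21 (SE). Of 10 host transcripts of small nucleolar RNAs, 4 were lower and none higher; Gas5 read 1197, 1997 and 1472 in microglia sEVs and 19152, 15115 and 18606 in neuron sEVs, with a difference of -1.62 ± 0.27 (SE). Division into subunits, steps and complexes here and below was made after the values were seen.

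**Figure D2:**
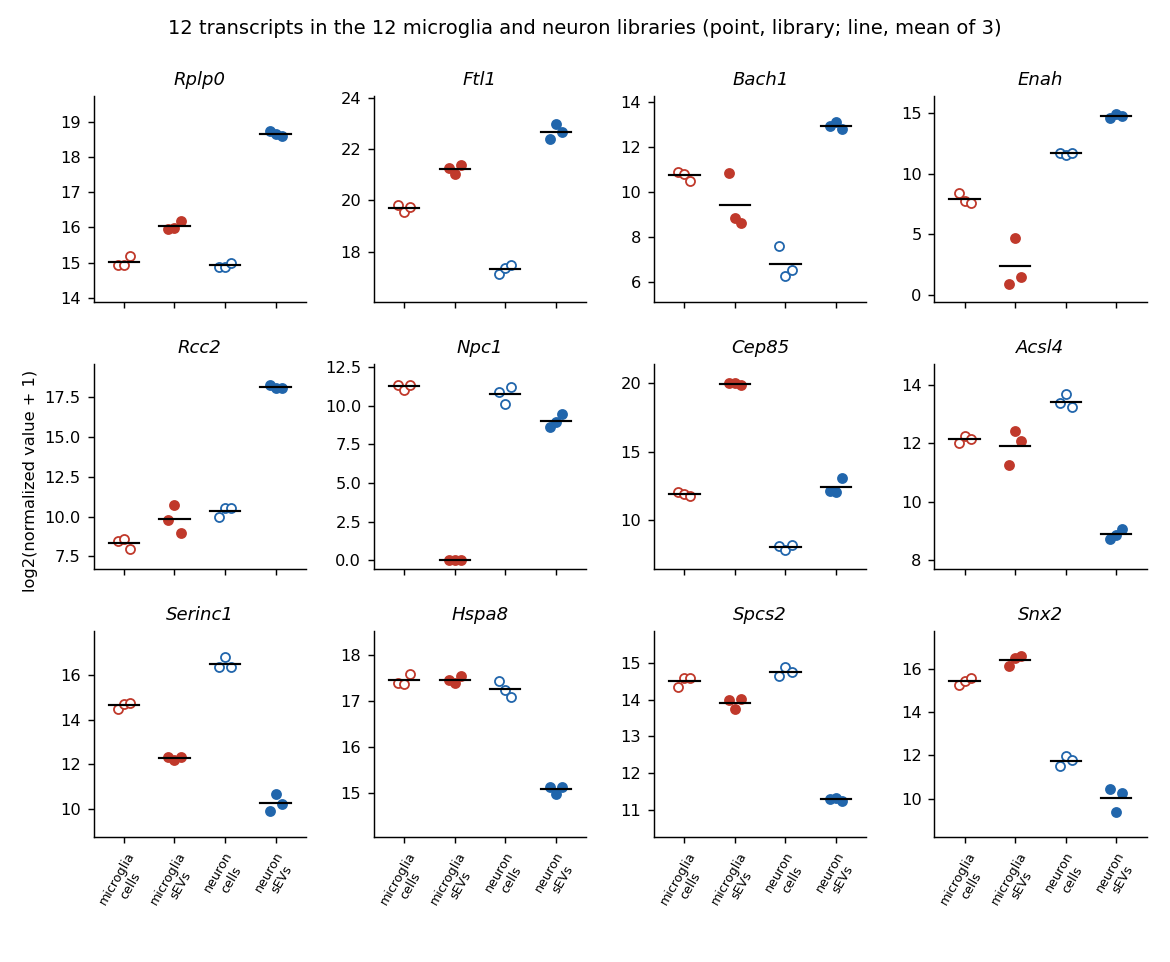
Values of 12 transcripts in the 12 libraries, on a log2(normalized count + 1) axis that differs between panels; points are libraries, filled for sEVs, and lines are means of 3. Rplp0, Ftl1 and Bach1 stand highest in neuron sEVs, Npc1 is at 0 in all 3 microglia sEV libraries, and Hspa8 and Spcs2 drop in neuron sEVs more than in microglia sEVs.

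Most genes for mitochondrial proteins encoded in the nucleus were not called for the difference, which does not show that they were packaged alike. Of 79 subunits of oxidative phosphorylation, 53 rose in microglia sEVs and 59 in neuron sEVs, and 6 were lower and 3 higher for the difference. Their median of -0.45, 0.33 above all members, turned to 0.17 with all libraries at the same total, with 2 lower and 9 higher. Cox7a2l, a protein of respiratory supercomplexes, was lower in microglia (-1.69 ± 0.20 (SE)), as was Atp5a1, a catalytic subunit of ATP synthase (-1.39 ± 0.17 (SE)). Sdha, the flavoprotein of complex II, was higher (1.22 ± 0.15 (SE)): it read 16446, 15638 and 17527 in microglia and 10452, 12287 and 12053 in their sEVs, but 20507, 23785 and 23602 in neurons and 6124, 6960 and 7340 in their sEVs. Sdha thus fell in both kinds of sEVs, and more in those of neurons. Of 78 mitochondrial ribosomal proteins, 7 were higher and 3 lower. Without the second neuron sEV library, 24 of the oxidative phosphorylation subunits were lower, and without the first microglia sEV library 5 were higher. Of the mitochondrial ribosomal proteins, 9 were lower without microglia sEV library 3, 7 without microglia sEV library 1, 5 without neuron library 2 and 1 without microglia library 2 or 3 or neuron library 1. With all libraries at the same total 18 of them were higher and 1 lower, and after quantile normalization 6 and 8.

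None of the 14 RNAs that mitochondria transcribe themselves was called for the difference. In microglia 13 of the 14 fell in sEVs, with a median of -3.68, and in neurons 13, with a median of -4.14. mt-Cytb, cytochrome b of complex III, read 179038, 220553 and 174018 in microglia and 4101, 29349 and 23573 in their sEVs, and 802579, 784997 and 941393 in neurons and 41963, 10524 and 42893 in their sEVs. The groups of cells and sEVs did not overlap in either type. Its difference was 1.23 ± 1.06 (SE, limma adjusted p = 0.447) and was not detectable at this spread. The median difference over the 14 was 0.94, 1.72 above all members. After quantile normalization 5 of the 14 were higher, with a median of 2.29. With length and GC trends removed, an alternative added after the data were seen, 2 were lower and the median was -1.51, and with the replicate number as a block 1 was lower, so both the calls and the direction depended on the processing.

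Protein quality control moved the other way from ribosomal proteins. Of 28 cytosolic chaperones, which fold and refold proteins, 12 were higher in microglia and none lower, with a median of 0.67, 1.45 above that of all members. Transcripts of 14 of them fell in neuron sEVs and of 1 in microglia sEVs. Hspa8, the constitutive HSP70, read 170836, 169375 and 197509 in microglia and 181150, 172950 and 190183 in their sEVs. In neurons it read 177086, 155040 and 140113, and in their sEVs 35478, 31918 and 35754. The microglia libraries overlapped and those of neurons stood apart, which gave a difference of 2.21 ± 0.12 (SE, limma adjusted p = 3.5e-08). Hsp90aa1, the inducible HSP90, and Dnaja1, an HSP40 co-chaperone, differed by 2.30 ± 0.22 (SE) and 2.24 ± 0.27 (SE). Dnajb6, another HSP40 protein, rose in microglia sEVs (0.73) and fell in those of neurons (-1.06). Hspa8, Hsp90aa1, Dnaja1 and Dnajb6 have between 3 and 6 near-identical transcripts of other genes in the reference, and their values are uncertain to that extent.

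Of 39 proteasome genes, whose products degrade ubiquitinated proteins, 15 were higher and 2 lower, with a median of 0.60, 1.38 above all members. The 19S regulatory particle held 10 of the higher calls among 20 genes and no lower call, with a median of 0.85. Psmc4, a 19S ATPase, read 9940, 12174 and 13536 in microglia, 13142, 16340 and 18402 in their sEVs, 8160, 8673 and 8623 in neurons and 3970, 3633 and 3811 in their sEVs. It fell in neuron sEVs, and the difference was 1.58 ± 0.23 (SE, limma adjusted p = 0.000188). Psmc2, another of these ATPases, rose in microglia sEVs (0.76) and fell in those of neurons (-0.85). The 20S core held 5 higher and 2 lower calls among 15 genes. The lowest of these was Psmb10, a subunit of the immunoproteasome, which rose in neuron sEVs by 2.36 and differed by -1.86 ± 0.27 (SE).

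Splicing factors followed the chaperones. Of 65 spliceosome and SR protein genes, 20 were higher and 4 lower (2 without neuron library 3 or neuron sEV library 1), with a median of 0.49, 1.27 above all members. Ddx5, an RNA helicase, read 57808, 55621 and 53213 in microglia and 33780, 33216 and 26665 in their sEVs, and 29677, 25179 and 26675 in neurons and 4455, 4178 and 4964 in theirs. Its libraries separated in both types and the fall was larger in neurons, with a difference of 1.75 ± 0.15 (SE, limma adjusted p = 1.1e-06). The SR proteins Srsf7 and Srsf5, which bind exons, differed by 2.72 ± 0.26 (SE) and 3.13 ± 0.38 (SE), and in neither did microglia sEVs differ from microglia by the test. Son, a protein of nuclear speckles, went the other way: it rose in neuron sEVs (2.13), fell in microglia sEVs (-0.88) and differed by -3.01 ± 0.39 (SE).

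Among 37 RNA-binding proteins, most of them known from work on vesicle RNA, 8 were higher and 5 lower. The hnRNPs, nuclear proteins that coat pre-mRNA, held 5 of the higher calls among 12 genes; Hnrnpk differed by 2.34 ± 0.26 (SE). Ybx1, a cold-shock domain protein, had the opposite sign. It read 4484, 3985 and 2892 in microglia, 18400, 13682 and 5762 in their sEVs, 10837, 8649 and 8650 in neurons and 245769, 233249 and 170129 in theirs, with a difference of -2.91 ± 0.50 (SE, limma adjusted p = 0.000669). Its level in sEVs was above that in cells in all libraries of both types, and further above in neurons. Ago1, an Argonaute protein that binds small RNAs, rose in neuron sEVs (3.23) and differed by -2.71 ± 0.58 (SE). Of 66 genes of transcription initiation and Mediator, 10 were higher and 1, Med1, was lower (-2.47 ± 0.44 (SE)). Without microglia sEV library 1, 2 or 3 the lower genes numbered 3, 5 and 6, and without neuron library 2 there were 2. Their median of -0.05, 0.73 above all members, had the opposite sign under each of the other scalings (0.57 with equal totals, with 21 higher, 0.05 after quantile normalization and 0.07 with libraries centred on the member median).

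**Figure D3:**
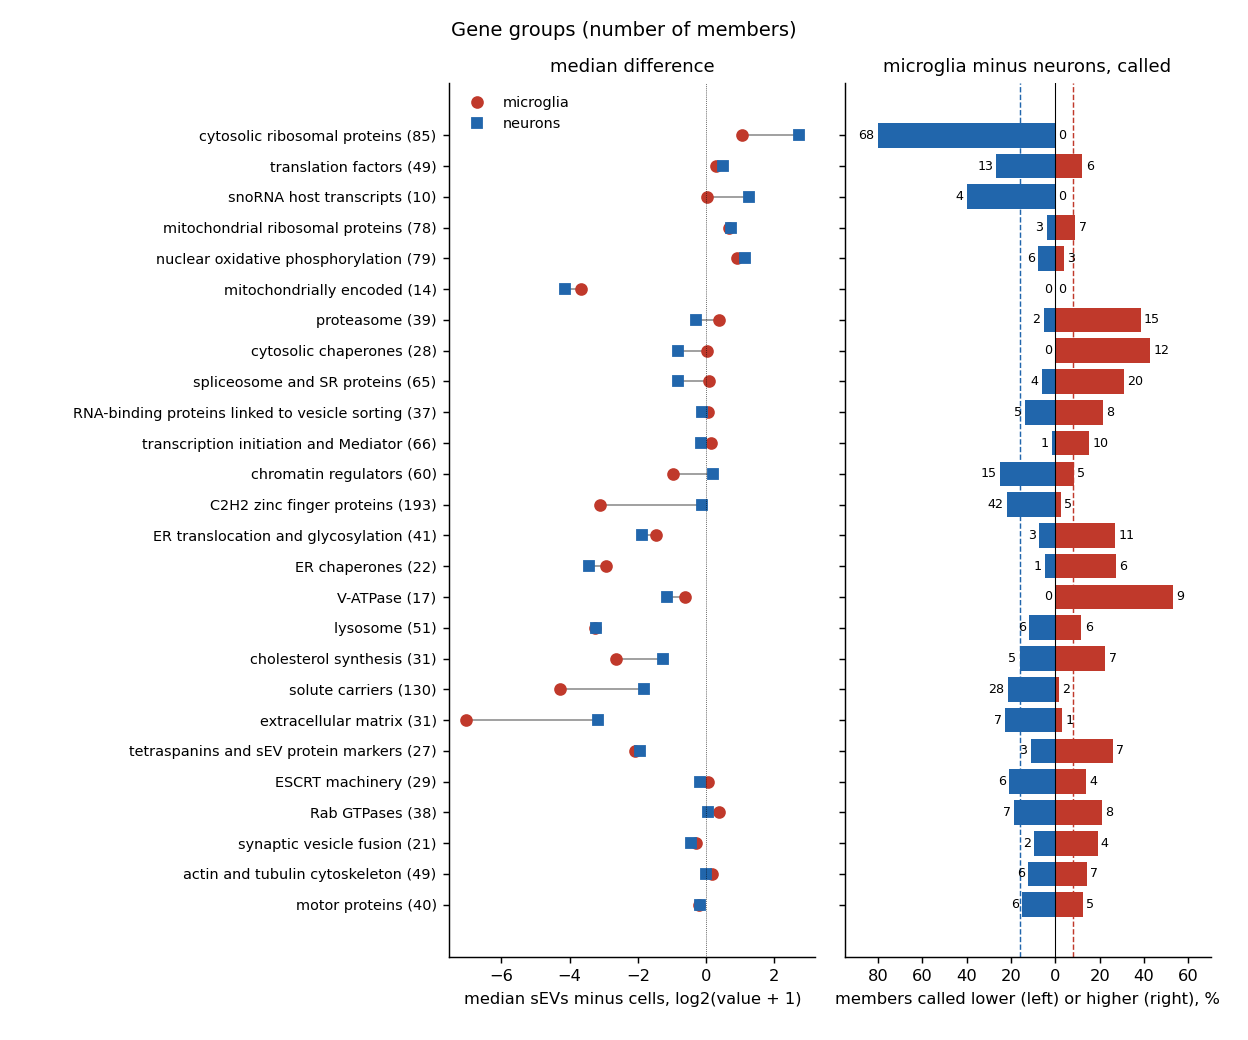
Left, the median sEV minus cell value of each gene group in microglia (circles) and neurons (squares), on the log2(value + 1) scale; right, the percentage of its members called lower or higher in microglia, with the counts beside the bars and dashed lines at the 15.8 and 7.79% of all members. Ribosomal proteins stand out to the left with 68 of 85 lower, and chaperones, proteasome and V-ATPase genes to the right with no or few lower calls.

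Transcripts translated at the ER were low in sEVs of both types. Of 22 ER chaperones, 20 fell in microglia sEVs and 19 in neuron sEVs, with medians of -2.94 and -3.44, and 6 were higher and 1 lower for the difference. Hspa5, the HSP70 of the ER, read 247487, 310582 and 308345 in microglia, 36412, 17456 and 30105 in their sEVs, 74440, 93859 and 91924 in neurons and 2331, 2595 and 2713 in theirs. It fell in both and further in neurons, by a difference of 1.66 ± 0.39 (SE, limma adjusted p = 0.00651). Pdia3, a disulfide isomerase, and Canx, a lectin chaperone, differed by 2.03 ± 0.28 (SE) and 1.90 ± 0.28 (SE). Edem1, which sends misfolded glycoproteins to degradation, was lower (-2.32 ± 0.55 (SE)), but not with all libraries at the same total (-1.70).

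Of 41 genes of ER translocation and glycosylation, 11 were higher and 3 lower, with a median of 0.22, 1.01 above all members. The lower genes numbered 1 without microglia library 1 or 2, microglia sEV library 2, neuron library 1 or 3 or neuron sEV library 1 or 2. Spcs2, a subunit of signal peptidase, read 20827, 24484 and 24559 in microglia and 16141, 13724 and 16419 in their sEVs. In neurons it read 25431, 30075 and 27558, and in their sEVs 2522, 2580 and 2441. Both types separated from their sEVs, neurons by far more, and the difference was 2.86 ± 0.16 (SE, limma adjusted p = 6.3e-08). Ddost, of the oligosaccharyltransferase, and Emc4, of the ER membrane complex, differed by 2.13 ± 0.24 (SE) and 2.49 ± 0.38 (SE). Srp54a, of the signal recognition particle, fell in neuron sEVs only by these calls (-2.20, against 0.20 in microglia sEVs), with a difference of 2.40 ± 0.38 (SE, limma adjusted p = 0.000329).

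The V-ATPase, the proton pump of endosomes and lysosomes, had 9 of 17 genes higher and none lower, with a median of 0.77, 1.55 above all members. The count was 13 with equal totals and 14 after quantile normalization, again with none lower. Atp6v0c, a subunit of the membrane ring, read 38257, 44634 and 40237 in microglia and 11918, 14796 and 16442 in their sEVs, and 81881, 92217 and 97418 in neurons and 5495, 3457 and 4029 in theirs. The fall in neurons was larger and gave a difference of 2.89 ± 0.39 (SE, limma adjusted p = 7.6e-05). Atp6v1h and Atp6v1c1 of the cytosolic sector differed by 2.31 ± 0.29 (SE) and 1.43 ± 0.26 (SE). Atp6v1c1 rose in microglia sEVs (0.64) and fell in those of neurons (-0.79).

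Lysosomal genes were low in both kinds of sEVs and divided for the difference, with 6 higher and 6 lower of 51. In microglia 37 fell in sEVs and in neurons 32, with medians of -3.25 and -3.23. Ctsb, a cathepsin protease, read 1691290, 1898720 and 1786400 in microglia and 249324, 109812 and 165987 in their sEVs, and 57321, 68096 and 56842 in neurons and 1314, 1179 and 1240 in theirs. It fell in both, further in neurons, with a difference of 2.17 ± 0.38 (SE, limma adjusted p = 0.000717). Npc2, a cholesterol carrier, was lower (-1.63 ± 0.26 (SE)). The group's median of -0.46, 0.32 above all members, was 0.16 with equal totals and 0.60 after quantile normalization, when 14 were higher and 6 lower.

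Genes of cholesterol and fatty acid synthesis, whose enzymes mostly sit in the ER membrane, had 7 higher and 5 lower of 31 (8 and 2 after quantile normalization). Hmgcs1, an early enzyme of the pathway, read 6165, 5248 and 6999 in microglia and 3262, 5860 and 6127 in their sEVs, and 68257, 61400 and 57037 in neurons and 11428, 8699 and 9540 in theirs. Only the neuron libraries separated from their sEVs and the difference was 2.34 ± 0.30 (SE, limma adjusted p = 4.1e-05). Without the third microglia sEV library 10 of the group were lower, and without the first microglia library 4 were higher. Dhcr7, of the last step, differed by 3.58 ± 0.61 (SE). Elovl6, a fatty acid elongase, was listed at 0 in all 3 microglia sEV libraries, from 209, 266 and 279 in microglia, against 5537, 3936 and 4706 in neuron sEVs.

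Several groups had few higher calls and low medians in microglia sEVs. Of 130 solute carriers other than mitochondrial ones, which are membrane transporters, 28 were lower and 2 higher, with a median of -2.54, 1.75 below all members. After quantile normalization 18 were lower and 7 higher, with a median of -0.60, 0.20 below all members. In 78 of them at least 1 microglia sEV library was at 0. The 4 with the smallest p (Slc46a3, Slc45a4, Slc7a6 and Slc19a1) were at 0 in all 3; Slc45a4 read 96.2, 107 and 151 in microglia, and neuron sEVs held 1658, 1741 and 1728 of it against 1254, 882 and 1958 in neurons. Of 31 matrix genes, 7 were lower and 1, Sparcl1, was higher. Agrn, a heparan sulfate proteoglycan, read 1482, 1164 and 1076 in microglia and 0, 8.99 and 52 in their sEVs, while in neurons (5238, 2641 and 6027) and their sEVs (3876, 4463 and 3129) the libraries overlapped. Its difference was -7.04 ± 1.32 (SE, limma adjusted p = 0.00136). Without the third microglia or the second neuron library 4 matrix genes were lower, with equal totals 4 and after quantile normalization 3.

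C2H2 zinc finger genes, mostly transcription factors of low level, had 42 lower and 5 higher of 193, with a median of -2.77, 1.99 below all members (-1.56 and 1.16 below after quantile normalization, with 40 lower). In 120 of the 193 at least 1 microglia sEV library was at 0. Leaving out 1 library at a time gave between 35 and 73 lower calls, with 73 without the third microglia sEV library. Zfp866 read 286, 309 and 113 in microglia, 0, 0 and 3.95 in their sEVs, 464, 289 and 425 in neurons and 4310, 3946 and 4648 in theirs. The neuron sEVs stood above neurons and the microglia sEVs near 0. Zfp709 and Zfp867 were at 0 in all 3 microglia sEV libraries, while neuron sEVs held 349, 491 and 416 of Zfp709 and 519, 936 and 874 of Zfp867. How far these calls rest on the low cell levels of such genes was not tested.

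Chromatin regulators had 15 lower and 5 higher calls of 60, with a median of -1.03, 0.25 below all members. Rcc2, a regulator of chromosome condensation and of small GTPases, was the most marked of the 4 with the smallest p. It read 345, 387 and 253 in microglia, 887, 1686 and 488 in their sEVs, 1006, 1453 and 1478 in neurons and 321434, 280455 and 277602 in theirs. It rose in both, by 1.47 in microglia and 7.82 in neurons, with a difference of -6.35 ± 0.48 (SE, limma adjusted p = 4.2e-07). Dnmt3a, a de novo DNA methyltransferase, rose in neuron sEVs (3.75) and differed by -3.23 ± 0.31 (SE). Kmt2a, a histone methyltransferase, and Arid2, of a chromatin remodeller, did likewise (-4.25 ± 0.76 (SE) and -3.26 ± 0.56 (SE)).

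**Figure D4:**
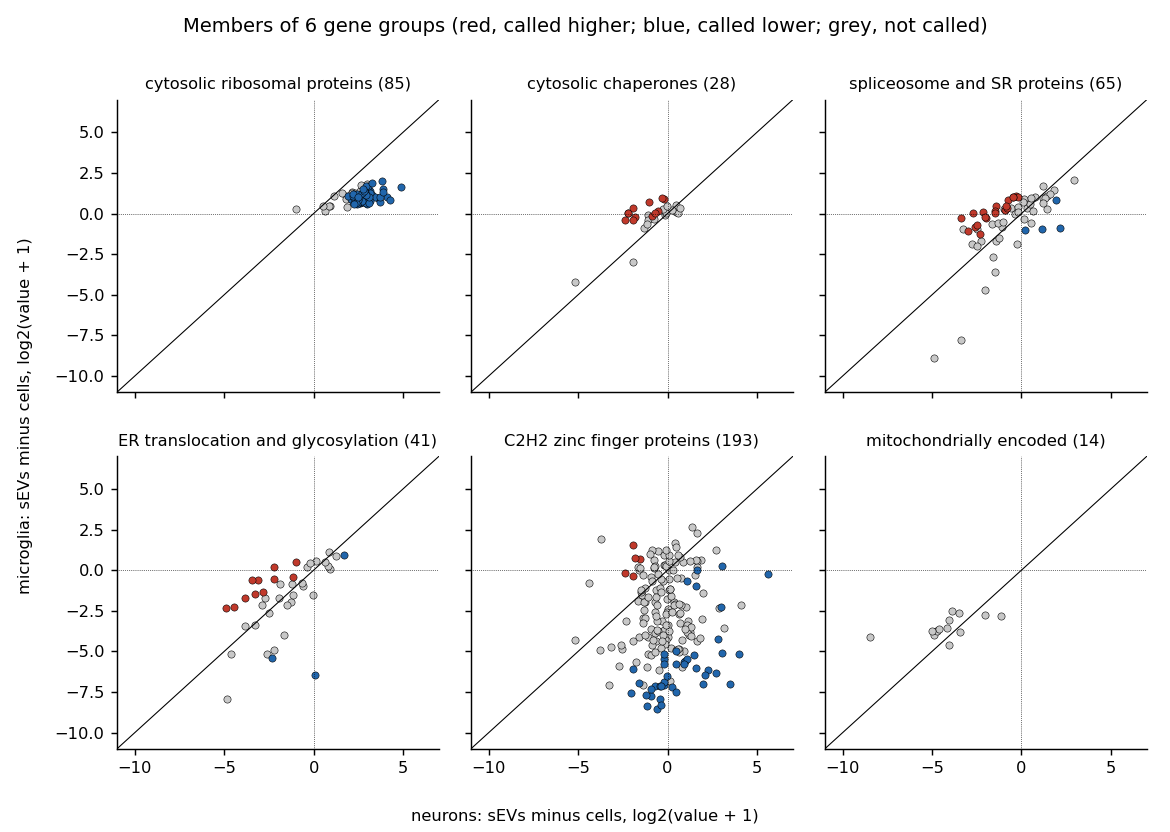
Members of 6 gene groups, with sEVs minus cells in neurons on the x axis and in microglia on the y axis (log2(value + 1) scale); colours give the call of the packaging difference. Ribosomal protein genes lie on the neuron side of the line of equal values (medians of 1.05 in microglia and 2.71 in neurons), zinc finger genes spread downwards in microglia (-3.12 and -0.12), and mitochondrially encoded RNAs lie low in both (-3.68 and -4.14).

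The machinery of vesicle formation did not move as 1 group. Of 27 genes for tetraspanins and other sEV protein markers, 7 were higher and 3 lower, and the median of -0.30, 0.48 above all members, turned to 0.32 with equal totals and 0.36 after quantile normalization. Cd63, a tetraspanin of late endosomes, read 118063, 138426 and 127159 in microglia and 52868, 38176 and 39876 in their sEVs, and 13808, 12122 and 14873 in neurons and 1040, 1927 and 1129 in theirs. Its transcript fell in both kinds of sEVs and further in neurons, with a difference of 1.8 ± 0.35 (SE, limma adjusted p = 0.00182). Cd9 and Cd81, tetraspanins of the cell surface, differed by 1.88 ± 0.58 (SE) and 1.10 ± 0.36 (SE), both called. Cd81 lost its call without any of the 3 microglia libraries, the first microglia sEV library, or library 1 or 3 of neurons or neuron sEVs (0.87 to 1.30 over all left-out libraries). Cd9 lost its call without library 1 or 3 of microglia or neurons or library 1 of either kind of sEVs (1.35 to 2.19). Without microglia sEV library 2 or 3 the lower genes of the list numbered 5 and 8. The syndecan Sdc2 and the tetraspanin Tspan9 were listed at 0 in all 3 microglia sEV libraries, while neuron sEVs held 883, 764 and 828 of Sdc2 and 1724, 2031 and 1396 of Tspan9.

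Of 29 ESCRT genes, which pinch vesicles off membranes, 4 were higher and 6 lower, but 10 and 2 with equal totals. Without neuron library 2 or neuron sEV library 2, 2 were higher. Vps4b, the ATPase that takes the complex apart, read 14436, 12124 and 14197 in microglia and 18142, 9723 and 13973 in their sEVs, which overlap. In neurons it read 2553, 2636 and 2551 and in their sEVs 273, 474 and 336, which gave a difference of 2.87 ± 0.37 (SE, limma adjusted p = 5.6e-05). Mvb12b and Vps37b of ESCRT-I rose in neuron sEVs (3.17 and 3.32), Mvb12b also fell in microglia sEVs (-2.31), and differed by -5.48 ± 1.15 (SE) and -3.80 ± 0.92 (SE). Tsg101, the central ESCRT-I subunit, differed by 0.25 ± 0.25 (SE, limma adjusted p = 0.512) and Pdcd6ip, which encodes ALIX, by -0.78 ± 0.40 (SE, limma adjusted p = 0.188); neither was called.

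Rab GTPases, which direct membrane traffic, had 8 higher and 7 lower calls of 38, and 13 and 4 with equal totals. Without microglia library 1 or neuron library 2, 5 were higher. Rab11a of recycling endosomes and Rab7 of late endosomes were higher (1.72 ± 0.20 (SE) and 1.37 ± 0.26 (SE)). Rab22a of early endosomes read 923, 1558 and 1349 in microglia sEVs and 9237, 8719 and 7528 in neuron sEVs, from 1348, 1236 and 963 and 890.4, 683 and 908 in cells. It rose only in neurons by these calls, with a difference of -3.27 ± 0.37 (SE, limma adjusted p = 1.6e-05). Of 21 genes of vesicle fusion, 4 were higher and 2 lower; the fusion ATPase Nsf and its adaptor Napa differed by 1.96 ± 0.50 (SE) and 1.68 ± 0.24 (SE). Of 49 actin and tubulin genes, 7 were higher and 6 lower (14 and 1 with equal totals, and 4 higher without neuron library 1), and of 40 motor protein genes 5 and 6 (7 and 3 with equal totals). The lower motor genes were 2 or 3 without any 1 library of either cell type or without neuron sEV library 1 or 3. Among the motors, dynein and dynactin held 4 of the higher and none of the lower calls in 14 genes. Kif1c, a kinesin, read 129.6, 70.5 and 213 in neurons and 10576, 9407 and 14332 in their sEVs, and 301, 362 and 195 in microglia and 32, 1035 and 616 in theirs, with a difference of -6.49 ± 1.31 (SE, limma adjusted p = 0.00246).

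Iron storage transcripts were among the most abundant members. Ftl1, the ferritin light chain, read 920417, 777348 and 888131 in microglia, 2488600, 2138480 and 2738140 in their sEVs, 144290, 171012 and 185264 in neurons and 5575240, 8197080 and 6664130 in theirs. Neurons held less of it than microglia and their sEVs held more, with a difference of -3.83 ± 0.35 (SE, limma adjusted p = 2.0e-06). Fth1, the heavy chain, was likewise higher in sEVs of both types and differed by -1.75 ± 0.23 (SE, limma adjusted p = 5.7e-05). After quantile normalization the differences were -0.96 for Ftl1 and -0.77 for Fth1, both still called. Ftl1 has 7 near-identical transcripts of other genes in the reference and is uncertain to that extent. Of the 16 members of the iron list these were 2 of 3 lower calls, and none was higher. Of 29 antioxidant enzymes 7 (11 without the third microglia sEV library, 3 with equal totals) were lower and 1, Sod2, the mitochondrial superoxide dismutase, was higher (0.89 ± 0.17 (SE)).

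Immune and disease-linked groups had medians above that of all members, and most held calls in both directions. Of 24 interferon-stimulated genes 2 were higher and 4 lower, with a median of 0.74, 1.52 above all members. Gbp3, a guanylate-binding protein, read 46297, 57380 and 53248 in microglia sEVs and 641, 703 and 1459 in neuron sEVs, from 67434, 86702 and 80588 and 270.2, 436 and 269 in cells. Its packaging difference was below 0, from -2.26 to -1.66 when each of the 12 libraries was left out in turn. Of 15 genes of class I antigen presentation 3 were higher and 2 lower (median 0.47, 1.25 above all members). Of 18 cytokine and NF-kB response genes 2 were higher and none lower (median 0.66, 1.44 above). Of 35 genes linked to neurodegeneration 10 were higher and 3 lower (6 lower without microglia sEV library 3), with a median of 0.10, 0.88 above all members. Vps35, of the retromer, read 10698, 11692 and 13464 in microglia and 7281, 8056 and 10285 in their sEVs, and 11297, 14669 and 10723 in neurons and 1697, 2084 and 1338 in theirs. It fell in neuron sEVs, with a difference of 2.36 ± 0.30 (SE, limma adjusted p = 5.3e-05). Vcp, an unfolding ATPase, and Psenen, of gamma-secretase, were higher too (1.19 ± 0.18 (SE) and 1.56 ± 0.27 (SE)), and Aph1b of the same protease was at 0 in all 3 microglia sEV libraries.

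Glycolysis had 1 higher (Eno1) and 1 lower (Gapdh) of 19, the immediate early genes 1 and 2 of 18, the cell cycle genes 1 and 4 of 42 (9 lower without the second microglia sEV library), and the mitochondrial carriers 3 and 3 of 26. The lower mitochondrial carriers numbered 5 without microglia sEV library 2 and 7 without library 3, and the higher ones 5 without library 1 and 6 with equal totals. Gapdh, often taken as a reference transcript, lost its call under each of the other scalings and has 77 near-identical copies in the reference. Of 7 nuclear noncoding RNAs, 2 were higher and 2 lower, with a median of 0.57 (-1.52 without microglia sEV library 1). In 4 of the 7 at least 1 microglia sEV library was at 0. With each of the 12 libraries left out in turn, Xist ranged from -8.61 to -7.32, Tug1 from 1.87 to 2.47 and Norad from 1.04 to 1.43, without losing a call. Malat1 of nuclear speckles was low in both sEVs, with 2859, 2740 and 1660 in those of microglia and 14051, 8578 and 17142 in those of neurons, from 159192, 133674 and 91940 and 274366, 185574 and 208543 in cells. Its difference of -1.62 ± 0.51 (SE, limma adjusted p = 0.0362) lost its call under each of the other scalings, and the sign turned after quantile normalization (0.09). It was also lost without any 1 of 7 libraries (-1.91 to -1.37 over all 12). Neat1, of paraspeckles, was not called (-4.96 ± 2.56 (SE, limma adjusted p = 0.191)).

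Among called members above 0 in all 12 libraries whose mean in the favoured sEVs reached 100, the 12 largest higher values came mostly from falls in neuron sEVs. Gpm6a (ENSMUSG00000031517.9), a membrane glycoprotein of neurons, read 262, 384 and 364 in microglia and 194, 1241 and 2942 in their sEVs, and 205765, 241846 and 216651 in neurons and 15869, 9041 and 11818 in theirs. Microglia sEVs overlapped microglia and neuron sEVs stood below neurons, with a difference of 5.63 ± 0.95 (SE, limma adjusted p = 0.00055). Sparcl1 (ENSMUSG00000029309.8), a secreted matrix protein, had 75737, 72247 and 70889 in neurons and 2285, 4399 and 3134 in their sEVs, and below 1300 in every microglia library, and differed by 5.52 ± 0.61 (SE). Both are known mainly from neurons and astrocytes. The 28 neuron markers held 0.00519 to 0.0173% of the counts in microglia sEVs against 0.00185 to 0.00268% in microglia. The part of such RNA in these 2 values was not tested.

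Further large values came from transcripts well expressed in both cultures. Acsl4 (ENSMUSG00000031278.13), which activates arachidonic acid, read 4122, 4877 and 4547 in microglia and 2430, 5490 and 4308 in their sEVs, and 10628, 13208 and 9749 in neurons and 422, 467 and 529 in theirs. The microglia libraries overlapped and the neuron libraries did not, which gave 4.33 ± 0.54 (SE, limma adjusted p = 3.9e-05). Serinc1, a membrane protein linked to serine lipids, and Ndfip1, an adaptor of ubiquitin ligases at the Golgi and endosomes, fell in both sEVs and further in neurons. Serinc1 read 23095, 26911 and 27175 and 5052, 4720 and 5140 in microglia and their sEVs, against 83941, 116342 and 84294 and 943, 1631 and 1205. The differences were 3.88 ± 0.42 (SE, limma adjusted p = 9.5e-06) for Serinc1 and 3.80 ± 0.34 (SE, limma adjusted p = 1.7e-06) for Ndfip1. Igf1, a growth factor that microglia secrete, overlapped between microglia and their sEVs (136020, 121128 and 115368, then 147955, 109996 and 117788) and fell in neuron sEVs, with a difference of 4.40 ± 0.47 (SE). Yipf6, Hspa2 and Ubr3 differed by 3.88 ± 0.76 (SE), 4.28 ± 1.10 (SE) and 3.79 ± 0.49 (SE), each through a fall in neuron sEVs.

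Cep85 (ENSMUSG00000037443.14), a centrosomal protein, was among the 12 largest higher values and rose in both kinds of sEVs. It read 4339, 3834 and 3430 in microglia and 1066830, 1053360 and 943197 in their sEVs. In neurons it read 282, 226 and 292, and in their sEVs 4429, 4267 and 8631. Each kind of sEVs stood far above its cells, by 8.05 ± 0.26 (SE) in microglia and 4.36 ± 0.26 (SE) in neurons, and the difference was 3.69 ± 0.37 (SE, limma adjusted p = 5.1e-06), or 1.91 after quantile normalization. Tyw3, of tRNA modification, rose in microglia sEVs (2.89, limma adjusted p = 0.00877) and differed by 4.23 ± 1.04 (SE).

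By the same filters, the 12 largest lower values were transcripts near the floor in microglia sEVs, raised in neuron sEVs, or both. Enah (ENSMUSG00000022995.17), an actin regulator of growth cones, read 350.1, 219 and 196 in microglia and 0.885, 25.6 and 1.8 in their sEVs, and 3496, 3113 and 3367 in neurons and 24873, 31212 and 28716 in theirs. It moved down in one type and up in the other, with no overlap in either, and the difference was -8.66 ± 0.98 (SE, limma adjusted p = 1.5e-05). Bach1 (ENSMUSG00000025612.6), a haem-regulated repressor, read 1910, 1802 and 1445 in microglia and 1812, 456 and 395 in their sEVs, which overlap. In neurons it read 192, 75.6 and 92.9 and in their sEVs 7726, 8853 and 7109, and the difference of -7.45 ± 0.82 (SE, limma adjusted p = 1.2e-05) came mostly from that rise (6.14). Notch1, the receptor, S1pr2, a sphingosine phosphate receptor, Tmem245, a membrane protein, and Ino80, a chromatin remodeller, fell in microglia sEVs with no call in neurons, and differed by -6.75 ± 1.10 (SE), -7.91 ± 1.64 (SE), -7.20 ± 1.0 (SE) and -6.91 ± 1.83 (SE). Anks1 differed by -6.67 ± 1.88 (SE) through a rise in neuron sEVs. In these 5 genes, Enah and Rgl2 at least 1 microglia sEV library read below 11, so the values rest in part on the pseudocount of 1. After quantile normalization the difference was -4.22 for Enah, -3.43 for Tmem245 and -4.52 for Ip6k1. AI506816, Ip6k1, Pakap and Notch1 share near-identical sequence with other genes in the reference and are uncertain.

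Called in opposite directions in the 2 types were 136 members, 46 up in microglia sEVs and down in neuron sEVs and 90 the reverse. All 136 were also called for the difference, which opposite calls in the same fit almost entail, so that agreement is no further result. The share of such genes among all genes tested was not counted. Among the first, Stambp, a deubiquitinase that acts at ESCRT sites, read 1793, 2085 and 1953 in microglia and 5807, 4717 and 5176 in their sEVs, and 2288, 2340 and 1832 in neurons and 584, 963 and 721 in theirs. The groups did not overlap in either type and the difference was 2.96 ± 0.34 (SE, limma adjusted p = 1.9e-05). Snx2, a sorting nexin of the retromer, rose from 39867, 45108 and 48722 to 73544, 93861 and 99385 in microglia sEVs and fell from 2877, 4022 and 3510 to 1409, 666 and 1238 in neuron sEVs. It differed by 2.70 ± 0.33 (SE, limma adjusted p = 3.4e-05). Brix1, a ribosome assembly factor, Arglu1, a splicing cofactor, Chac2, a glutathione-degrading enzyme, and Prkcq, protein kinase C theta, differed by 2.84 ± 0.40 (SE), 2.87 ± 0.38 (SE), 2.97 ± 0.59 (SE) and 4.14 ± 0.83 (SE).

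In the reverse direction, besides Enah, Limd1, a LIM-domain scaffold, read 1234, 1591 and 1142 in microglia and 44.8, 283 and 373 in their sEVs, and 806, 297 and 1153 in neurons and 8404, 7695 and 9899 in theirs. The groups did not overlap in either type and it differed by -6.67 ± 0.93 (SE, limma adjusted p = 0.000109). Rgl2, an effector of Ras, and Ip6k1, an inositol phosphate kinase, differed by -7.23 ± 0.97 (SE) and -7.00 ± 1.10 (SE). Pakap, an anchoring protein of protein kinase A, had 204, 241 and 199 in microglia sEVs and 11183, 12149 and 14084 in neuron sEVs, with a difference of -6.86 ± 0.80 (SE). AI506816, a transcript without a known product, differed by -7.56 ± 0.33 (SE).

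Members listed at 0 were mostly in microglia sEVs. All 3 microglia sEV libraries were at 0 in 415 members and all 3 neuron sEV libraries in 36, with 23 in both sets. Of the 415, 276 were called lower. Among the 3834 members with a cell mean of at least 1000 in both types, 16 were at 0 in all microglia sEV libraries and none in all neuron sEV libraries. Npc1, the cholesterol transporter of lysosomes, read 2579, 2105 and 2606 in microglia and 0 in all 3 of their sEV libraries, and 1866, 1096 and 2379 in neurons and 394, 502 and 700.1 in theirs. Timp3, a metalloproteinase inhibitor, read 572, 4598 and 9451 in microglia, 0 in all their sEVs and 1928, 3351 and 3734 in neuron sEVs. Serpinf1, Ccn1 and Cpq, which encode secreted proteins, were at 0 in the same way. In neuron sEVs Serpinf1 read 226, 97.4 and 254, Ccn1 704, 504 and 920.0 and Cpq 38.8, 77.4 and 143. A value of 0 gives no fold change, and their fitted differences depend on the pseudocount. Timp3, Serpinf1 and Ccn1 were lowest in the first microglia library, with 657, 2751 and 4935 for Serpinf1 and 389.8, 3436 and 4308 for Ccn1. The 15 fibroblast and meningeal markers held 0.0203 to 0.0418% of the counts in microglia and 0.00282 to 0.00554% in their sEVs, with 10 of them at 0 in all 3 sEV libraries, and the part of such cells was not tested. Cpq lost its call with equal totals, after quantile normalization and without any 1 of 9 libraries (-7.85 to -6.93 over all 12).

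The reverse case held 13 members. Cd74, the invariant chain of class II antigen presentation, read 9094, 11712 and 11034 in microglia and 5802, 5877 and 4878 in their sEVs, and 156, 284 and 83.3 in neurons with 0 in all 3 of their sEV libraries. F11r, a junction adhesion molecule, and Il13ra1, a cytokine receptor, were at 0 in neuron sEVs. Microglia sEVs held 2395, 715 and 575 of F11r and 1706, 1976 and 471 of Il13ra1. Icam1, an adhesion receptor, read 37825, 21355 and 25699 in microglia sEVs and was not called (limma adjusted p = 0.0502), and neither was Rdh12 (0.374), while Icam1 was called under each of the other scalings (3.32 to 5.31). Il13ra1 lost its call after quantile normalization (2.92). In single neuron libraries these transcripts read between 78.6 and 408.1.

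Astrocytes, whose libraries enter neither side of the difference, more often lay near neurons for the lower members. Among all genes tested 8% were higher and 18.6% lower in astrocyte sEVs, 26.6% in all, and 1122 and 1633 of the members. Of the 1410 members lower in microglia, the astrocyte sEV effect was nearer that of neurons in 1147 (81.3%). The share was 64.9% over all members and 47.6% (331 of 695) for those higher in microglia, given as a description without a test. Medians in astrocytes were 0.82 for members called lower and -0.63 for those called higher. Bach1, Rcc2 and Ftl1 rose in astrocyte sEVs by 5.23, 7.25 and 5.86, near their neuron values of 6.14, 7.82 and 5.34. Igf1 was at 3.77 in astrocytes and -4.39 in neurons, while its microglia and microglia sEV libraries overlapped, so the astrocyte value lay near neither type. These genes are single examples. Across the members the astrocyte effect correlated with that of neurons at r = 0.78 and with that of microglia at r = 0.47, without a test, and microglia sEV replicates correlated less with one another than those of the other groups. Astrocyte markers held 3.48 to 4.08% of the counts in astrocytes, 0.545 to 0.598% in the neuron cultures and 0.0116 to 0.0310% in microglia. In sEVs they held 1.15 to 2.15%, 0.296 to 0.453% and 0.0201 to 0.0235%. The part of astrocytes in the neuron cultures in this nearness was not tested.

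What the called members shared beyond the rule was read from GENCODE transcripts, which matched 8919 of the 8926. Transcripts of members called lower had a median length of 3633 bases and a GC content of 51.6%, against 2294 bases and 45.8% in those called higher and 2914 bases and 49.5% in those not called. With the members in 5 equal bins from short to long, the median difference went from -0.26 to -1.88. In microglia the median went from 0.26 to -1.52, and in neurons from 0.22 through -0.69 and back to 0.03. By GC content the difference went from -0.01 in the lowest of 5 bins to -1.44 in the highest, with -0.55 to -1.42 in microglia and -0.79 to 0.04 in neurons. The shares of members with a microglia sEV library at 0 were 15.7% in the bin of the shortest transcripts and 36% in that of the longest. With each library's trends with length and GC content removed, an alternative added after the data were seen, 567 members were higher and 1236 lower, with a median of -0.75, and 1467 of the 2105 calls were kept. Among gene groups, higher calls then numbered 9 of 39 for the proteasome, 5 of 17 for the V-ATPase and 11 of 60 for chromatin regulators, and 19 of 79 oxidative phosphorylation subunits were lower. Lower calls numbered 10 for chromatin regulators. Of the RNA-binding proteins 3 were higher and 6 lower, of the mitochondrial ribosomal proteins 6 and 8, and of the cytosolic chaperones 12 and 2. The median of the ER translocation and glycosylation genes was -0.02. Cytosolic ribosomal proteins held 72 lower calls and no higher one. Ago1 (-1.57), Anks1 (-5.03), Atp6v1c1 (0.74), Chac2 (0.84) and Rab11a (0.16) were no longer called.

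**Figure D5:**
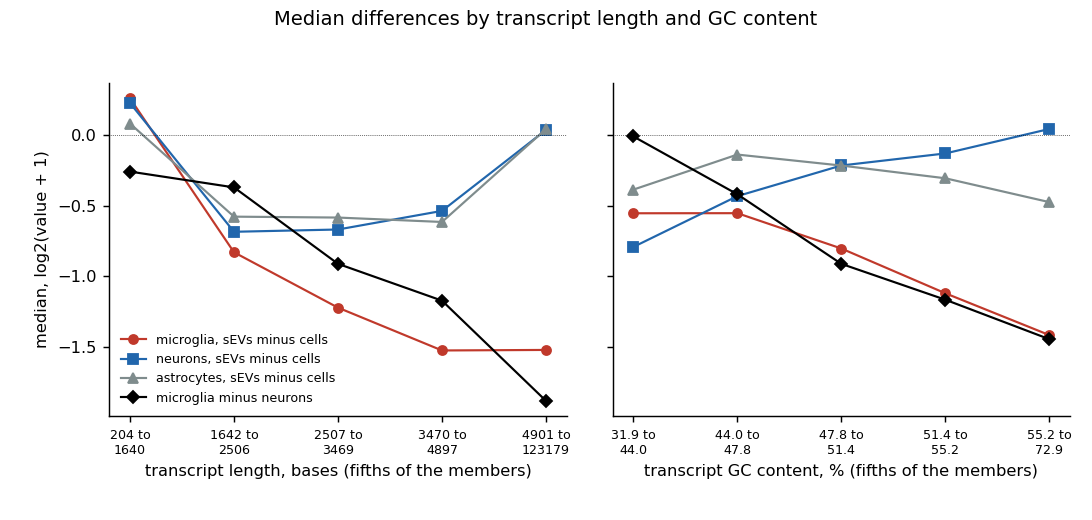
Median sEV minus cell value of the members in microglia, neurons and astrocytes, and the median packaging difference, for 5 equal bins of the members by transcript length in bases (left) and GC content in percent (right), on the log2(value + 1) scale. The packaging difference drops from -0.26 to -1.88 with length and from -0.01 to -1.44 with GC content.

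Transcripts whose protein holds a hydrophobic stretch (a 19-residue window with a mean Kyte-Doolittle value of at least 1.6), as membrane and secreted proteins do, were 25.5% of those called higher, 32.1% of those called lower and 31.3% of all with a coding sequence. The median in sEVs against cells of members with such a stretch was -2.53 in microglia and -1.23 in neurons, against -0.34 and -0.00 for the other members. The median difference was -1.21 with such a stretch and -0.62 without, but after quantile normalization -0.26 and -0.45, so the order depended on the scaling.

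The level in cells also moved with the difference, which contains it. For the 4242 members whose cell means were within 2-fold of each other, 388 were higher and 596 lower, with a median of -0.50. For the 1309 members more than 4-fold higher in neurons the median was -2.16, and for the 868 more than 4-fold higher in microglia it was -0.28. With 6171 members above 0 in all 12 libraries, an alternative added after the data were seen, 680 were higher and 828 lower, and the median was -0.09.

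Several of the named transcripts cannot be fully told apart from others by their reads. With an alignment of at least 300 bases at 95% identity as the limit, the same holds for Eef1a1, Eef1g, Eef2, Eno1, Malat1, Xist, Norad, Aph1b, Pabpc1, Atp6v0c, Spcs2, Srp54a, Hmgcs1, Elovl6, Slc45a4, Vps4b, Rab7, Ddx5, Srsf5, Hnrnpk, Ybx1, Zfp866, Kmt2a, Vcp, Psenen, Tsg101, Cd63, Snx2 and Icam1 as for the genes marked above. Npc1, Ctsb, Timp3, Vps37b, Son, Tyw3, Anks1, Stambp, Cpq, Vps35, Pdia3, Emc4, Atp5a1, Atp6v1h, Dnmt3a, Tug1, Cd9 and Cd81 overlap an exon of a gene on the opposite strand, and the library kit does not mark strand.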

How the data were processed

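Poly(A) RNA of primary mouse brain cultures and their sEVs was primed with poly(dT), amplified and made into libraries with a kit that does not mark strand, per the labels' protocols. RNA of sEVs and of cells was extracted with different kits in every cell type, so kit and compartment cannot be told apart. The authors deposited normalized counts (a signal, with no raw counts) for 54307 genes, made with Salmon 1.8.0 on GRCm39 and DESeq2, per the submitters' processing notes. Values did not come out as whole reads (2.9 to 9.04% of those below 100 lay within 0.001 of a whole multiple of the commonest non-zero value), so no count test was run. The 6 columns of group means were not used. Depth, as the estimated reads given in the report, is only an estimate, and no counting interval was computed.

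From these values log2(value + 1) was fitted with limma 3.58.1 in R 4.3.3, using 6 group means over all 18 libraries, an empirical Bayes trend and genes at 10 or more in at least 3 libraries (19612 genes, among them all 8926 members). P-values were adjusted over all genes tested by Benjamini-Hochberg, and a call is an adjusted p under 0.05, 2-sided. Other scalings, pseudocounts, filters, weights and left-out libraries were tried. Further alternatives were added after the data were seen: members above 0 in all 12 libraries, equal totals outside the 100 highest genes of any library, and removal of trends with length and GC content. The members and gene lists were chosen with earlier results of these data known, so lists are given by counts and medians beside all members. Division of lists into smaller sets and single genes said to be chosen after their values were seen lie outside the naming rule.

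Named genes were the 12 largest called members each way that were above 0 in all 12 libraries whose mean in the favoured sEVs reached 100 and a proper gene symbol, the 6 largest each way among members called in opposite directions, up to 4 of each list by smallest p, the 5 members with the highest cell mean at 0 in 1 kind of sEVs only, and 12 fixed genes. Transcript lengths, GC content, coding sequences and copies (blastn 2.17.0) came from GENCODE for GRCm38, another build, and no coordinates were used. Symbols were given by that annotation for 127 of 128 members that lacked one. The fit was tested on simulated normal log2 values with 1 spread per gene in all groups. Such data cannot show how the wider spread and the zeros of microglia sEVs affect the calls. Between cells and sEVs of equal replicate number the r of deviations was 0.016 to 0.15, and between those of unequal number -0.11 to 0.043. Whether equal numbers mark paired samples is therefore not settled, and the main fit did not pair them.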

Additional observations from a re-analysis of the deposited data

Results flagged for a closer look

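Flagged were 12 transcripts that moved up in the sEVs of one type and down in those of the other, with the difference between the types past the limma test. Opposite calls in the same fit almost entail that last condition. Higher in microglia sEVs and lower in neuron sEVs were Prkcq (4.14), Chac2 (2.97), Stambp (2.96), Arglu1 (2.87), Brix1 (2.84) and Snx2 (2.70). The reverse held for Enah (-8.66), AI506816 (-7.56), Rgl2 (-7.23), Ip6k1 (-7.00), Pakap (-6.86) and Limd1 (-6.67). Each value is the packaging difference, microglia minus neurons, on the log2(value + 1) scale. In astrocyte sEVs the first 6 had effects between -0.67 and 0.14, none of them called, while Enah rose by 3.0, Pakap by 4.03, AI506816 by 4.80 and Limd1 by 2.31, and Rgl2 (1.13) and Ip6k1 (1.29) were not called.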

How the results depend on the processing

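Of the 2105 calls, between 1467 and 2016 were kept under the settings applied to all members, and 1 was called the other way (with length and GC trends removed). With all libraries at the same total the members called higher numbered 1307 and the members called lower 907, and the median over members was -0.16. The median was -0.40 after quantile normalization, -0.66 with libraries centred on the member median, -0.58 with a pseudocount of 10, -0.64 with library weights and -0.55 with equal totals outside the 100 highest genes of any library. With a cell mean of at least 500 in both types 721 were lower and the median was -0.23; with cell means within 2-fold 388 were higher and 596 lower with a median of -0.50; and above 0 in all 12 libraries 828 were lower with a median of -0.092, each with fewer members. The cause of the other shifts was not tested. Leaving out each library in turn gave 546 to 789 higher and 1130 to 1934 lower members and medians from -0.82 to -0.41. With the replicate block 524 were higher and 1137 lower, 1622 calls were kept and the median was -0.78. The pairing is by number only (r of 0.025, 0.016 and 0.074 in microglia and 0.029, 0.055 and 0.15 in neurons). Of single genes, Malat1 turned sign after quantile normalization (0.092), Fbln1 after it (1.65) and with a pseudocount of 10 (0.72), and Cd68 with library weights (-0.0091) and when single libraries were left out (-0.22 without the second of neuron sEVs, up to 0.57). Stmn2 ranged from -1.41 to 3.46 over left-out libraries and was below 0 without microglia library 1 (-0.28) or microglia sEV library 2 or 3 (-1.36). With length and GC trends removed, mt-Nd5 (-0.85), mt-Cytb (-0.57), Capza2 (-0.11), Stmn2 (-0.36) and Tsg101 (-0.63) turned; none was called. Values near 0 in microglia sEVs limit what can be measured: 2686 members had at least 1 of those libraries at 0, against 218 in neuron sEVs.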
